A study of Saccharomyces cerevisiae with 8 samples.

Results

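The 10 genes described here belong to the cell wall of budding yeast: 5 chitin synthase genes (CHS1, CHS2 and CHS3, with the helper genes CHS5 and CHS7) and 5 yapsin genes (YPS1, MKC7, YPS3, YPS6 and YPS7). They were chosen by gene name in the array files, which gave 10 of the 6336 gene features; the rule used no measured value, though earlier results of these data were known when it was set. Every one of the 10 passed the filter on dim spots, which kept 6152 features. The cells were Saccharomyces cerevisiae BY4741, a haploid MATa laboratory strain, grown in rich medium (YPD). Treated cultures received 10 µM of Iztli peptide 1 (IP-1), an engineered fungicidal peptide into which alpha pheromone sequence was built, and untreated cultures received no peptide. They were harvested after 3.5, 7, 15 or 30 min. Per the labels, 4 treated and 4 untreated cultures were grown separately, and each array held 1 pair of them, with untreated RNA in Cy3 and treated RNA in Cy5 and no dye swap. All groups shared strain, mating type and medium. Each gene had 2 spots on an array, deposited as replicates 1 and 2, which are technical and were counted as 1.

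Chitin is a minor but essential part of the yeast wall, concentrated in the septum between mother and bud and in a ring at the bud neck. Chs1, Chs2 and Chs3 are separate membrane enzymes that polymerise it from UDP-N-acetylglucosamine, for repair at cell separation, for the primary septum, and for the ring and lateral wall. Yapsins are aspartyl proteases held at the cell surface by a lipid anchor, where they trim and shed wall proteins. Transcription of CHS1 is known to be induced by mating pheromone and that of YPS1 by wall stress through the kinase Slt2.

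The ratio of treated to untreated signal is given throughout on the log2 scale, after background correction and loess normalisation within the array. The 2 spots of a feature correlated at 0.778, 0.761, 0.908 and 0.559 over all tested features on the 3.5, 7, 15 and 30 min arrays. One culture pair was measured at each exposure, so a value at 1 exposure has no replicate and no test. A mean over the 4 arrays was tested against 0, and a slope on log2 minutes likewise, with limma and Benjamini-Hochberg adjustment over all tested features at 0.05. The p-values therefore measure the spread between 4 arrays that differ in exposure as well as culture. AGA1, the agglutinin subunit gene that pheromone induces, was higher on every array, with a mean of 1.95 ± 0.52 (SD, n = 4, limma adjusted p = 0.0024). Of 6 a-cell genes, MFA1 and MFA2 passed the test as higher, and none of 4 alpha-cell genes did, beside 2.08% of all tested features. The cell type could not be checked from brightness, which cannot be compared between features. STE2, the MATa receptor gene, was at 2.22 to 10.1 times its local background in untreated cells, and STE3, the alpha-cell receptor gene, at 2.22 to 3.79 times. The feature named LEU2, a gene that BY4741 is known to lack, was at 239 to 451 times its background, so a signal over background does not by itself show that the named gene was expressed. Gene names below are those of the array files, and whether a feature also binds related transcripts was not analysed here.

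None of the 10 genes passed the test on the mean, against 8.91% of all tested features (2.08% higher and 6.83% lower). At an unadjusted p under 0.05, 4 genes passed (CHS1, CHS7, YPS1 and MKC7), against 28.2% of features. None passed on the slope, where no feature did either: 0% after adjustment, and 0.992% at an unadjusted p under 0.05, none of them among the 10. The means of 9 of the 10 genes lay above 0, as did 52.5% of all means, but without normalisation CHS3, CHS7, YPS3, YPS6 and YPS7 lay below 0. Those means came from the deposited ratios, which also had no background correction. In these ratios the median of all features was -0.15, -0.73, -0.04 and -0.10 on the 3.5, 7, 15 and 30 min arrays. With them centred, only YPS3 of those genes lay below 0, at -0.0039. The median of the 10 means was 0.15, that of the chitin synthase genes 0.17 and that of the yapsin genes 0.09, beside 0.01 over all tested features. The 4 genes CHS1, CHS3, CHS7 and YPS1 were above 0 on all 4 arrays, against 17.5% of features, and none was below 0 on all 4, against 19.4%. Some of these signs turned under other settings. At 7 min CHS1 was -0.10 with median centring, and YPS1 -0.07 with the first spots only. At 30 min CHS3 was -0.11 with the deposited ratios centred.

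At single exposures a gene was counted where both spots passed a limit on the same side. At a log2 ratio of 1, a 2-fold difference, YPS1 passed as higher at 3.5 min (0.309% of features did) and CHS1 at 15 min (0.439%), and none of the 10 at 7 min (0.0488%) or 30 min (0.0163%). At 0.5, CHS1 and YPS1 passed as higher at 3.5 min (1.76%), none at 7 min (0.26%), CHS1 and CHS5 at 15 min (3.53%) and YPS1 at 30 min (0.504%). CHS1 and YPS1 did so on 2 arrays each, as did 1.04% of features on at least 2. None of the 10 passed as lower at either limit, where 0.0325%, 0.0325%, 0.878% and 0% of features passed a log2 ratio of -1 at 3.5, 7, 15 and 30 min, and 1.76%, 1.9%, 6.76% and 0.423% passed -0.5.

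**Figure D1:**
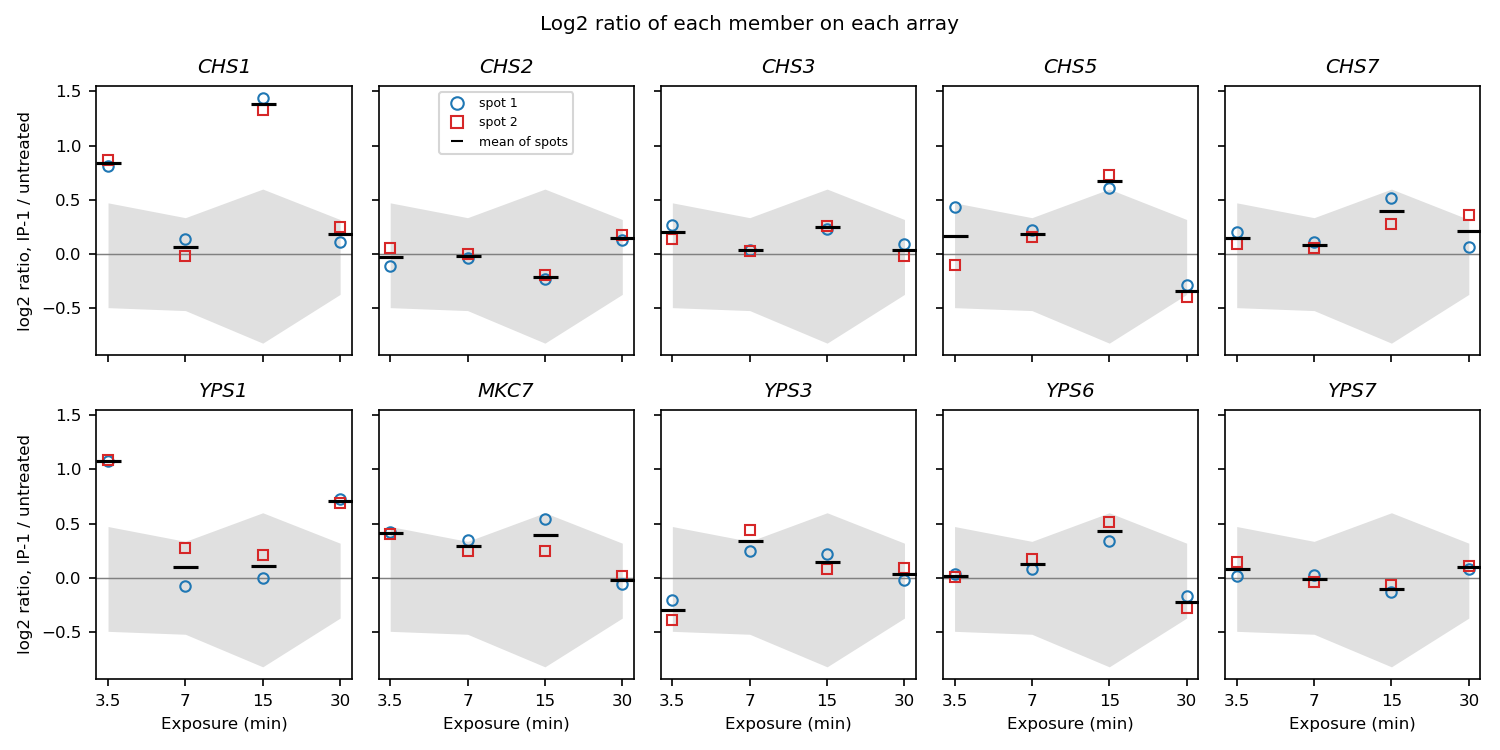
Log2 ratio of IP-1 over untreated (vertical axis) of each gene at 4 exposures in minutes (horizontal axis, evenly spaced); circles and squares are the 2 spots, dashes their mean, and grey the central 95% of all tested features on that array. By the mean of spots, CHS1 stood above the grey at 3.5 and 15 min, YPS1 at 3.5 and 30 min, CHS5 at 15 min and, narrowly, YPS3 at 7 min. The means of the other genes stayed inside it on every array.

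CHS1 (YNL192W), the enzyme that repairs the wall as daughter cells separate, had ratios of 0.84, 0.06, 1.38 and 0.18 at 3.5, 7, 15 and 30 min. It was thus high on the 3.5 and 15 min arrays and near 0 on the others. At 15 min this is 2.61-fold, with the spots at 1.44 and 1.33, and the gene ranked 14 from the top of the tested features. At 3.5 min it was 1.79-fold and ranked 32. At 7 min the spots were 0.14 and -0.02, and the value was -0.10 with median centring in place of loess, so no direction can be read there. The mean was 0.62 ± 0.61 (SD, n = 4), a 1.53-fold ratio above 0 on 4 of 4 arrays, and did not pass (limma adjusted p = 0.084). Without the 15 min array it was 0.36 (limma adjusted p = 0.12). In bulk cultures, more cells that express a gene and more RNA per cell cannot be told apart.

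The signal of each dye was also compared across arrays after the average brightness of the arrays was quantile normalised. In untreated cells CHS1 had log2 levels of 7.12, 7.13, 7.38 and 6.98, a range of 0.40. In treated cells they were 7.95, 7.19, 8.76 and 7.16, a range of 1.60. The treated channel at 3.5 and 15 min stood above all 4 untreated levels by more than the untreated range, and at 7 and 30 min it lay among them. CHS1 was dim: its untreated signal was 1.82 to 3.01 times the local background, and its treated signal 1.51 to 7.14 times. Its ratio at 3.5 min depended on the background step, at 0.84 here, 1.22 with plain subtraction and 0.72 with no correction.

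CHS2 (YBR038W) builds the primary septum and is transcribed late in the cell cycle. Its ratios were -0.03, -0.02, -0.21 and 0.15 at the 4 exposures in order. They lay on both sides of 0, with a mean of -0.03 ± 0.15 (SD, n = 4, limma adjusted p = 0.85). This was the lowest mean of the 10, and under other settings it was as high as 0.10.

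CHS3 (YBR023C) encodes the enzyme that makes most of the chitin of the wall and the ring at the bud neck. Its ratios were 0.20, 0.04, 0.25 and 0.03, all above 0 and all within the central range of the arrays. The 30 min value was -0.11 with the deposited ratios centred. The mean was 0.13 ± 0.11 (SD, n = 4, limma adjusted p = 0.26). Its higher values fell on the same 3.5 and 15 min arrays as those of CHS1, at a smaller size. Because one array carried each exposure, it was not tested whether this order belongs to the exposures.

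CHS5 (YLR330W), a subunit of the exomer coat that carries Chs3 from the Golgi to the surface, had ratios of 0.17, 0.19, 0.67 and -0.34. Its highest value at 15 min came with both spots past 0.5 (0.61 and 0.73) and ranked 109 from the top. At 30 min it was the lowest value of any of the 10 genes on any array, 213 from the bottom of the tested features. At 3.5 min the spots disagreed, at 0.44 and -0.10, the largest gap between spots among the 10 genes. The mean of 0.17 ± 0.41 (SD, n = 4) did not pass (limma adjusted p = 0.44), and leaving out the 15 min array gave 0.0066, leaving out that at 30 min 0.34.

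CHS7 (YHR142W), which helps Chs3 leave the endoplasmic reticulum, had ratios of 0.15, 0.08, 0.40 and 0.21. All 4 were above 0, and the highest was again at 15 min, where the spots were 0.51 and 0.28. The mean was 0.21 ± 0.13 (SD, n = 4), with an unadjusted p of 0.019 and a limma adjusted p of 0.11. Over the chitin genes, 4 of 5 (all but CHS2) thus had their highest ratio on the 15 min array, which also had the widest spread over all features (SD 0.35, against 0.18 to 0.25 on the others). YPS6 was also highest there, and the share of all features highest on that array was not computed.

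YPS1 (YLR120C), yapsin 1, had ratios of 1.08, 0.10, 0.11 and 0.71. It was high at the first and last exposures and low at the 2 between them. At 3.5 min both spots read 1.08, a 2.12-fold ratio ranked 22. At 30 min the spots were 0.73 and 0.69, a 1.64-fold ratio ranked 18. The 30 min value was 0.39 with no background correction, 0.20 with the deposited ratios and 0.30 with those centred, all under 0.5, and the 3.5 min value was under 1 with median centring (0.95) and with the deposited ratios (0.74, and 0.88 centred). At 7 min the spots were -0.07 and 0.28 and set no direction. The mean was 0.50 ± 0.48 (SD, n = 4), 1.41-fold and above 0 on 4 of 4 arrays, with a limma adjusted p of 0.083. It passed without the 15 min array, at 0.63 with a limma adjusted p of 0.028, and not without any other single array; without the 3.5 min array the mean was 0.31 (limma adjusted p = 0.24).

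Untreated log2 levels of YPS1 were 8.51, 8.41, 7.45 and 8.04, and treated levels 9.59, 8.51, 7.55 and 8.75. Both channels were thus lowest on the 15 min array, the treated levels at 3.5 and 30 min stood above every untreated level, and that at 7 min equalled the highest untreated level. The array is printed in 32 blocks. On the 15 min array, the block of YPS1 had a median brightness of -0.50 log2 units relative to the features' own means over the arrays, and a median ratio of -0.14. The blocks that hold YPS3 and YPS6 were also dim there, at -0.53 and -0.50, with median ratios of -0.10 and -0.14. With loess run within each block YPS1 was 0.20 at 15 min and 1.20 at 3.5 min. The part of position in its 15 min value was not tested further.

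MKC7 (YDR144C), yapsin 2, had ratios of 0.41, 0.30, 0.39 and -0.02. It was higher on the first 3 arrays and at 0 on the last. The mean was 0.27 ± 0.20 (SD, n = 4, limma adjusted p = 0.082), and 0.37 with an adjusted p of 0.032 without the 30 min array. Its treated signal at 30 min was only 1.37 times the local background, and that ratio was 0.24 with no background correction.

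YPS3 (YLR121C), whose gene lies next to YPS1, had ratios of -0.30, 0.34, 0.15 and 0.04. It was below 0 on the array where YPS1 was highest and above YPS1 at 7 min. Its mean was 0.06 ± 0.27 (SD, n = 4, limma adjusted p = 0.73). It was dim, at 1.47 to 2.73 times background over both channels.

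YPS6 (YIR039C) had ratios of 0.02, 0.13, 0.43 and -0.22, with its highest value at 15 min and its lowest at 30 min, as CHS5 had. The mean was 0.09 ± 0.27 (SD, n = 4, limma adjusted p = 0.60). YPS7 (YDR349C), another anchored member of the family, had ratios of 0.08, -0.01, -0.10 and 0.10, the narrowest range of the 10 genes. Its mean of 0.02 ± 0.09 (SD, n = 4, limma adjusted p = 0.88) lay beside 0. In the processing used here, only YPS1 of the 5 yapsins had both spots past 0.5 on any array, and none had both below -0.5. Under other settings more means of spots passed 0.5 in size. YPS6 was 0.58 at 15 min with loess run within each block. MKC7 was 0.56 and YPS3 -0.52 at 3.5 min with plain subtraction.

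**Figure D2:**
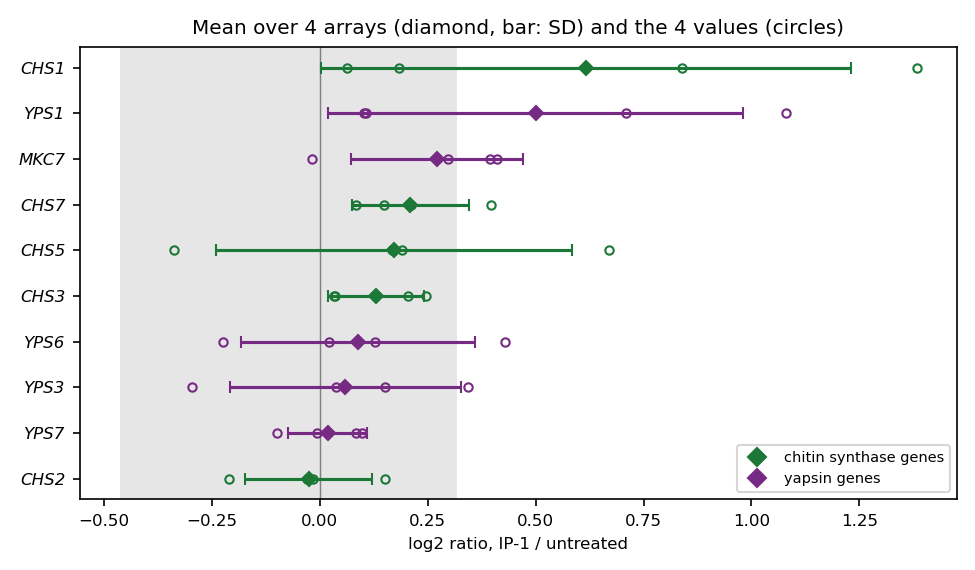
Mean log2 ratio of IP-1 over untreated (horizontal axis) of the 10 genes: diamonds are means over 4 arrays, bars are SD, circles are the 4 arrays, green marks chitin synthase genes and purple yapsin genes. The grey band holds the central 95% of all means, -0.46 to 0.32, and CHS1 at 0.62 and YPS1 at 0.50 lie outside it with the widest bars.

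CHS1 and YPS1 had different patterns over the arrays. Their ratios differed by -0.24, -0.04, 1.28 and -0.53 (CHS1 minus YPS1) at 3.5, 7, 15 and 30 min. Both were high at 3.5 min and near 0 at 7 min, CHS1 alone was high at 15 min and YPS1 alone at 30 min. The differences at 3.5, 15 and 30 min exceeded the spot SD over all features of 0.12, 0.11 and 0.14 on those arrays. That at 7 min did not. The spot SD covers the error of spotting and not that of cultures or processing, so exceeding it does not place a difference beyond error. With the deposited ratios CHS1 was 0.17 and YPS1 0.20 at 30 min, or 0.27 and 0.30 centred. With plain subtraction they were 1.22 and 1.23 at 3.5 min. At 15 min the deposited ratios still differed, at 1.31 for CHS1 and 0.0011 for YPS1. Among all genes CHS1 ranked 28 and YPS1 41 by mean, but neither had an even ratio over the arrays. Ranking by size alone thus placed them near the top, while the test, which weighs the mean against the spread, did not.

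The order of the arrays carried a doubt. The column headers of the scanner files number the arrays labelled 3.5, 7, 15 and 30 min as 2, 3, 4 and 1. The labels were followed here. If the numbers were the order of exposure, YPS1 would read 0.71, 1.08, 0.10 and 0.11 from first to last, with a slope of -0.28 (limma adjusted p = 0.29), and CHS1 0.18, 0.84, 0.06 and 1.38, with a slope of 0.28 (limma adjusted p = 0.42). By the labels the slopes were -0.11 for YPS1 and -0.05 for CHS1. Neither order gave a slope that passed, and the means do not depend on the order.

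Levels across arrays differed more than ratios for several genes. CHS5 had untreated levels of 7.24, 8.41, 8.86 and 8.66, and treated levels of 7.40, 8.60, 9.53 and 8.33. Both channels were lowest at 3.5 min, and the same held for CHS3, at 8.47 untreated and 8.68 treated against 9.41 to 9.72 and 9.45 to 9.96 on the other arrays. CHS2, CHS3, CHS5 and YPS7 lay in 3 neighbouring blocks whose median brightness at 3.5 min ran from -0.37 to -0.21 on the same scale. YPS6 was the other way, at 10.10 untreated and 10.22 treated at 7 min against 7.94 to 8.15 and 7.81 to 8.37 on the other arrays. In each of these cases both channels were low or high together: the ratios were 0.17 for CHS5 and 0.20 for CHS3 at 3.5 min, and 0.13 for YPS6 at 7 min.

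**Figure D3:**
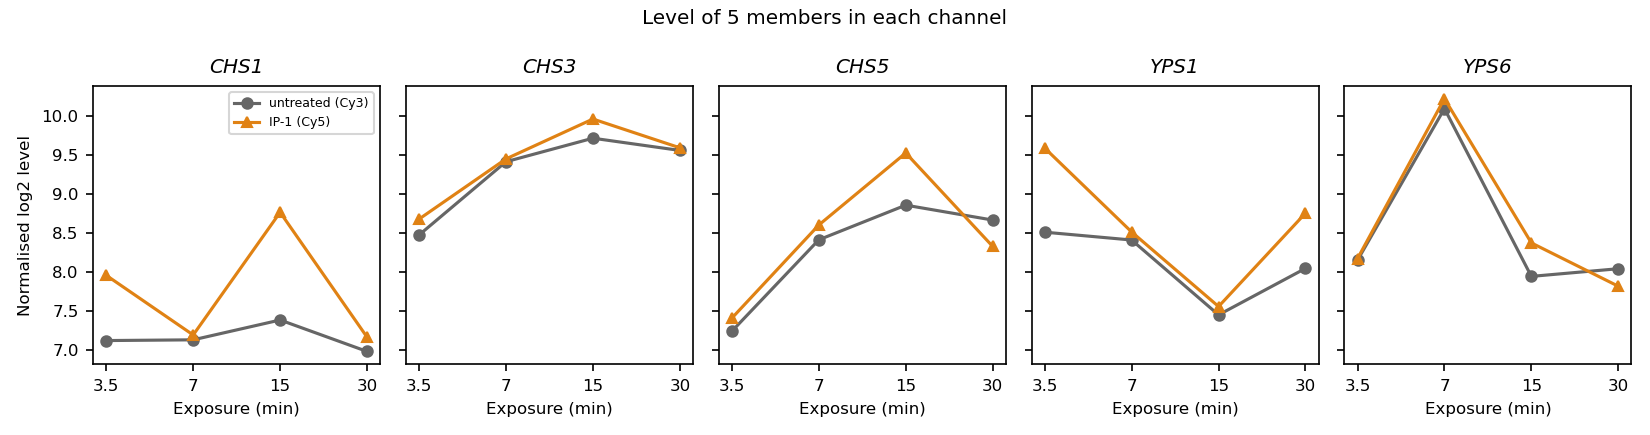
Normalised log2 level (vertical axis) of 5 genes in the untreated (grey circles, Cy3) and IP-1 (orange triangles, Cy5) channel at each exposure in minutes; each point is 1 array and the lines only join points. CHS1 and YPS1 show gaps between the channels on 2 arrays each, and YPS6 shows both channels high at 7 min, at 10.10 untreated and 10.22 treated.

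The features whose 4 ratios lay closest to those of CHS1, by root mean square difference among 5797 single-gene candidates, were NCW2, a wall protein gene, at 0.12, and the Ty3 retrotransposon gene YGR109W-B, at 0.13. BAR1, the protease that degrades alpha pheromone, came next at 0.27. NCW2 had ratios of 0.71, 0.18, 1.45 and 0.35, and BAR1 1.19, -0.17, 1.12 and 0.40. All 3 had their higher values on the 3.5 and 15 min arrays, as CHS1 did, which follows from how they were picked. YGR109W-B has near-identical copies in the genome, so its signal may come from more than one of them.

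CHS3 had closer neighbours, BFR2 at 0.017, FAB1 at 0.022 and PYC1 at 0.023, and its own ratios were at most 0.25. The nearest to YPS1 were SEC61, a subunit of the channel into the endoplasmic reticulum, at 0.27, ERT1 at 0.28 and AMF1 at 0.31. SEC61 had ratios of 0.68, 0.23, 0.21 and 0.40, lower than YPS1 at 3.5 and 30 min and passing the test on the mean (limma adjusted p = 0.036), which YPS1 did not. With 4 arrays, such likeness only describes these values.

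**Figure D4:**
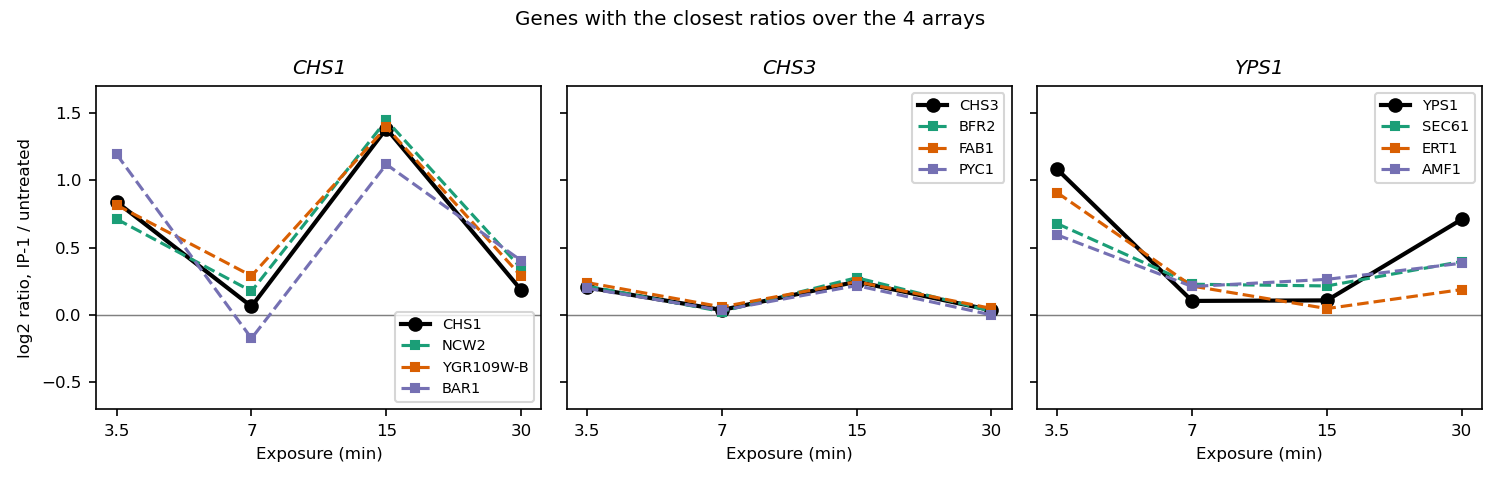
Log2 ratio of IP-1 over untreated (vertical axis) at each exposure in minutes for CHS1, CHS3 and YPS1 (black) and the 3 features closest to each (coloured squares); lines only join points. CHS1 and its neighbours peak at 3.5 and 15 min, and no neighbour of YPS1 reaches its 0.71 at 30 min.

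Other genes of the same processes were read from lists of gene names. Of 20 further genes of chitin synthesis, transport and breakdown, none passed as higher and 2 as lower (10%, beside 6.83% of all features as lower), with a median mean of 0.05. PCM1, an enzyme on the way to UDP-N-acetylglucosamine, had ratios of -0.41, -0.39, -0.65 and -0.12 and a mean of -0.39 ± 0.21 (SD, n = 4, limma adjusted p = 0.032). CDA2, a chitin deacetylase of the spore wall, fell by 0.38 on the log2 scale (limma adjusted p = 0.025) and was below 0 on 4 of 4 arrays. GFA1, which starts the route to UDP-N-acetylglucosamine, had the highest mean, 0.27, with 0.67 at 15 min, and did not pass (limma adjusted p = 0.14).

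Of 12 other proteases, none passed as higher and STE13, which trims the alpha pheromone precursor, passed as lower, at -0.51 ± 0.36 (SD, n = 4, limma adjusted p = 0.039). That is 8.33% of the list, beside 6.83% of all features as lower and 2.08% as higher. BAR1 had the highest mean of that list, 0.63, and did not pass (limma adjusted p = 0.088). The further yapsin gene YPS5 had a mean of -0.26, below 0 on 4 of 4 arrays (limma adjusted p = 0.054). Of 10 yapsin substrates and related wall proteins, none passed as higher and 1 as lower (10%, beside the same 6.83% of all features). This was GAS1, a glucan-remodelling enzyme, with ratios of -0.70, -0.63, -0.80 and -0.29 (mean -0.60 ± 0.22, SD, n = 4, limma adjusted p = 0.011). SIM1 was highest at 0.16.

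None of 12 genes of the G2/M group that includes CHS2 passed, and their means ran from -0.23 (IQG1) to 0.19 (BUD3). None of 7 glucan synthesis genes passed either, from -0.13 (FKS3) to 0.25 (SMI1). Over all tested features 8.91% passed, so lists this short can hold no call at that share. At an unadjusted p under 0.05, 2 genes of each of these lists passed, beside 28.2% of all features. These lower calls depended on the processing: out of 16 alternatives, PCM1 lost its call in 6, CDA2 in 5, STE13 in 8 and GAS1 in 4, and all 4 genes lost it without the 3.5 min or the 7 min array, with their means still below 0. Beside them, 14 of 32 control features named after Arabidopsis genes also passed as lower, with a median of -0.32. These controls had weight 0 in the loess and were added to the fit without the filter on dim spots. They are thus not on the same footing as the tested features, of which 6.83% passed as lower. With no dye swap, a dye effect and an effect of IP-1 cannot be told apart, in a mean or in the ratio of any single array.

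**Figure D5:**
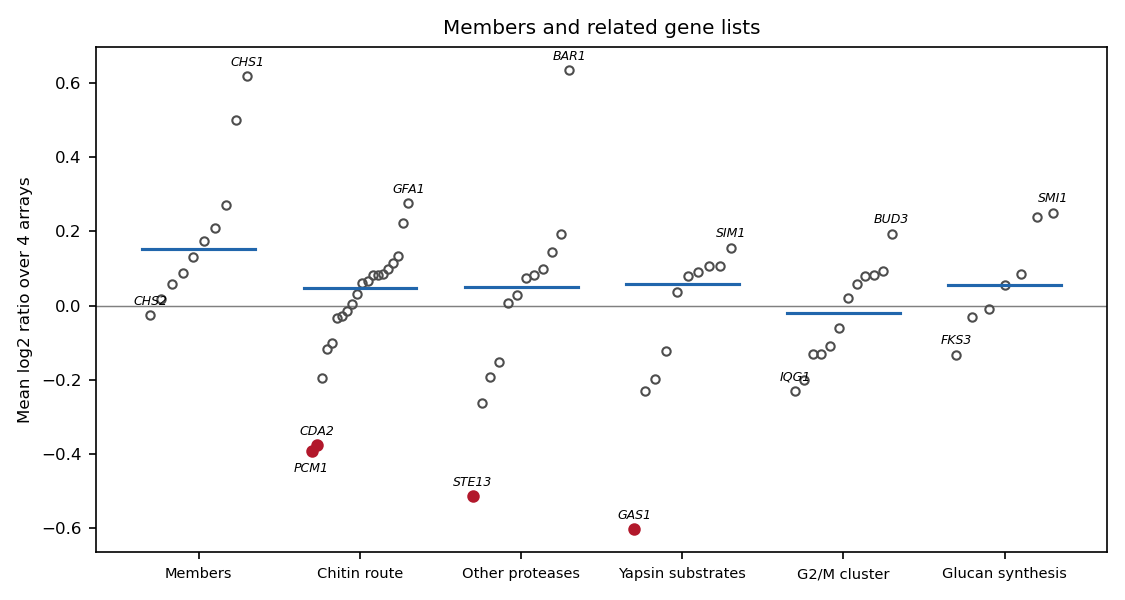
Mean log2 ratio over 4 arrays (vertical axis) of the 10 genes and of 5 lists of related genes; each circle is a gene, filled red where it passed the test, and the blue line is the list's median. The 4 genes that passed, PCM1, CDA2, STE13 and GAS1, all lie below 0, and CHS1 and BAR1 are the highest.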

How the data were processed

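RNA of 4 treated and 4 untreated cultures was hybridised to 4 spotted 2-colour arrays, with 6336 gene features of 2 spots each. Total RNA was extracted with Trizol and labelled with a first-strand cDNA kit, per the labels. The deposited scanner tables hold, per the file headers, the mean raw intensity of each spot and channel with its local background and background SD. The deposited matrix holds log10 ratios, which equal raw Cy5 over raw Cy3 within 4.98e-07 and are not centred. In all, 28 scanner columns, other background columns included, were not used. The scanner and the software are not given in the sources used here.

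From the intensities, background was corrected with normexp (offset 50), each array was normalised by loess (span 0.3, 4 iterations, empty and control spots at weight 0), and spots were averaged. The levels of each channel were set on one scale by quantile normalisation of the arrays' average brightness (Aquantile). A feature was tested where, on each of the 4 arrays, 1 or both channels had both spots more than 2 background SDs over background. Of 320 empty spots, 68.1% to 88.8% exceeded this limit, so it is lenient. The mean and the slope on log2 minutes were tested with limma 3.58.1 in R 4.3.3, two-sided, with Benjamini-Hochberg adjustment over 6152 features, and figures were drawn with matplotlib 3.10.9. The fit was tested on simulated data with independent noise for each feature and array. That simulation held no effect of array, block or dye, so it does not cover such errors. Precision is limited by having 4 arrays. Of the features, 5763 matched a RefSeq locus tag, and 573 kept the file's name only.

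The genes and lists were chosen with earlier results of these data known. Named are the 10 genes, from each list the called, highest and lowest genes, the 3 features nearest to CHS1, CHS3 and YPS1, and AGA1, STE2, BAR1 and STE3; YPS5, LEU2, MFA1 and MFA2 were added after their values were seen. Sequences of the genes were not analysed here.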

Additional observations from a re-analysis of the deposited data

Results flagged for a closer look

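The untreated log2 level of YPS6 on the 7 min array was 10.1, far from the other 3 arrays at 7.94 to 8.15, and it was the one outlying value among 30 groups of values examined for the 10 genes (ratio, untreated level and treated level of each). Chance alone marks about 1 in 20 such groups. The treated level was 10.22 on the same array, and the 2 spots had ratios of 0.08 and 0.17. The gene's brightness stood 1.56 log2 units above its own mean over the arrays, while 0.331% of all features stood more than 1 unit above theirs on that array. The cause was not tested.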

How the results depend on the processing

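The means of CHS1, CHS5, YPS1 and MKC7 kept their direction under all 16 alternatives, CHS1 between 0.28 and 0.82, CHS5 between 0.0066 and 0.34, YPS1 between 0.13 and 0.63 and MKC7 between 0.034 and 0.37; the low end of CHS5 is a value at 0. Members passing the test rose from 0 to 1 with no background correction (MKC7, limma adjusted p = 0.045) and without replicate 1, that is with the second spots only (YPS1, 0.032), and to 2 with a trended robust prior (YPS1 and MKC7, both 0.049); leaving out 1 array gave 0 to 1. Direction turned where means were small. CHS2 was 0.074 with median centring, 0.098 with the deposited ratios centred and 0.011 without replicate 1, and ran from -0.085 to 0.035 as single arrays were left out (above 0 without the one at 15 min). CHS3 was -0.031 and CHS7 -0.046 with the deposited ratios uncentred. YPS3 was -0.012, -0.26 and -0.0039 with median centring and deposited ratios uncentred and centred, and ran from -0.035 (7 min left out) to 0.18 (3.5 min left out). YPS6 was -0.055 with the uncentred ratios and ran from -0.025 (15 min left out) to 0.19. YPS7 was -0.013 with no background correction, -0.21 with the uncentred ratios and -0.0012 without replicate 2, and ran from -0.0078 (30 min left out; -0.0031 with 3.5 min left out) to 0.058. The CHS1 slope was 0.11 and 0.031 with the deposited ratios uncentred and centred, -0.17 to 0.28 as single arrays were left out (0.077 for 3.5 min, 0.28 for 30 min), and 0.28 in the header order, an alternative chosen after seeing the data; that of YPS1 ran from -0.46 to 0.28, the latter with 3.5 min left out.

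Counts over all features moved more. Against 128 higher and 420 lower, there were 50 and 213 with no background correction, 78 and 226 with median centring, 7 and 52 with the deposited ratios, 4 and 1 with them centred, and 210 higher with the trended prior. Leaving out the 3.5 min array left 7 and 5, leaving out the 7 min array 8 and 2, and the ranges over single arrays left out were 7 to 154 higher and 2 to 421 lower. With the 15 min array left out the slope passed for 15 features, and with the 30 min array left out for 30, none of them a member. Calls in the chitin list were 1 with plain subtraction and 0 with median centring or deposited ratios, and ranged from 0 to 2 without 1 array. Calls among other proteases were 0 with no background correction, median centring, block-wise loess and deposited ratios, 2 with the trended prior, and 0 to 1 without 1 array. Yapsin substrates had 2 calls with block-wise loess, 0 with deposited ratios, and 0 to 1 without 1 array, and the G2/M list 1 with the trended prior. At 3.5 min, 2 members passed 2-fold with plain subtraction or an offset of 10, and 0 with median centring or deposited ratios; at the limit of 0.5 there were 2, 2 and 1 at 3.5, 15 and 30 min. Of 360 values per gene and array over 9 settings, 86 moved by more than the spot SD. Leaving out the 15 min array left 97 higher and 370 lower over all features, and leaving out the 30 min array 154 and 421. The causes were not tested. No paired analysis was possible because each exposure had 1 array and replicate numbers name 2 spots of it.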

Other observations

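The median of the a-cell genes was higher on the same arrays as CHS1. The median log2 ratio of these 6 genes was 1.14, 0.12, 0.70 and 0.26 at 3.5, 7, 15 and 30 min, beside 0.84, 0.06, 1.38 and 0.18 for CHS1. STE6, the exporter of a-factor, did not follow the median: it had 0.46, 0.13, 0.07 and 0.34, with its higher values on the 3.5 and 30 min arrays, as YPS1 had at 1.08, 0.10, 0.11 and 0.71. AGA1 had 2.68, 1.65, 1.97 and 1.51. These are descriptions over 4 arrays, with no test, STE6 was named after its values were seen, and BAR1 is in both the a-cell and the protease list.

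The features named for the 4 genes known to be deleted in BY4741, in part or whole, were all over background in untreated cells. They were at 1.75 to 2.01 times their own background for URA3, 2.70 to 5.17 times for HIS3, 3.64 to 11.5 times for MET17 and 239 to 451 times for LEU2. The probe names were taken as the files give them.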
